A study of Oryza sativa with 10 samples.

Results

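The terminal 2.5 Mb of the short arms of rice chromosomes 11 and 12 were examined in 3 lists of G-quadruplex capture peaks. A peak belonged to a segment where its midpoint lay within 2.5 Mb of the chromosome end. The segments held 1596 of 136841 peaks, or 1.17%, on 1.34% of the genome length that the lists span. Of these, 795 lay on chromosome 11 and 801 on chromosome 12. BioCyTASQ in vitro contributed 496 of its 49898 peaks, the list deposited for BioTASQ in vitro and for the antibody BG4 contributed 367 of 29443, and BioTASQ in vivo contributed 733 of 57500.

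All libraries came from seedlings of the rice cultivar Nipponbare aged 2 weeks, fixed with 1% formaldehyde for 10 min. The captures were BioCyTASQ in vitro (2 libraries), BioTASQ labelled vitro (2 libraries) and BioTASQ labelled vivo (2 libraries), with replicates described as biological. The controls were 1 biotin and 1 input library labelled vivo, whose labels name BioTASQ, and 1 biotin and 1 input library labelled vitro, whose labels name no bait. The labels give vitro and vivo without further detail, and none of the 10 libraries carries BG4 as its label.

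G-quadruplexes are stacked structures that single strands with several runs of guanines can fold into, and rice chromosomes hold many sequences able to do so. BG4 is an antibody fragment raised against them. BioTASQ and BioCyTASQ are related synthetic baits that carry biotin, so that what they bind can be drawn onto streptavidin beads. The short-arm ends of rice chromosomes 11 and 12 are known as a segmental duplication: they carry long runs of corresponding genes in the same order from the end, and the copies are more alike in sequence than those of the older duplications of the genome, with gene conversion between them as one process described there. Reads from stretches where the copies are identical cannot be assigned to one chromosome, and the sources used here do not say how such reads were handled. The genome sequence was not used here, so corresponding places were compared by their distance from the end alone, and that the segments are copies is background and was not measured.

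Each capture had 1 list and no list per library, so no value has an error between replicates and no test across samples could be made. Intervals given below are 95% intervals for counting error only (exact Poisson for densities, exact conditional binomial for ratios, Wilson for shares), and they treat peaks as independent. The rows deposited for BG4 and for BioTASQ in vitro were identical (29469 rows, 0 differing), so they were counted once, as BG4/BioTASQ in vitro. Which capture they come from was not settled here. The row names of this list contain the word flag. Read depth per library was not analysed here. Positions count from 1, and the sources used here do not name the genome build.

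Both segments held nearly the same number of peaks in each list. BioCyTASQ in vitro had 100.4 peaks per Mb on the chromosome 11 segment (interval 88.4 to 114) and 98.0 on the chromosome 12 segment (86.1 to 111). The BG4/BioTASQ in vitro list had 77.2 per Mb on chromosome 11 (66.7 to 88.9) and 69.6 on chromosome 12 (59.6 to 80.7). BioTASQ in vivo had 140.4 on chromosome 11 (126 to 156) and 153 on chromosome 12 (138 to 169). The chromosome 11 to chromosome 12 ratio was 1.02 (0.856 to 1.23) for BioCyTASQ in vitro, 1.11 (0.899 to 1.37) for the BG4/BioTASQ in vitro list and 0.919 (0.793 to 1.06) for BioTASQ in vivo. All 3 intervals hold 1, so a difference in density between the segments was not detectable with these counts.

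Against 2.5 to 5 Mb of the same chromosome, 1 of 6 ratios had an interval that did not hold 1, that of the BG4/BioTASQ in vitro list on chromosome 11. It had 193 peaks in the segment and 139 in the next window, a ratio of 1.39 (1.11 to 1.74). On chromosome 12 it had 174 peaks in the segment and 183 in the next window (ratio 0.951, 0.768 to 1.18). BioCyTASQ in vitro had 251 and 241 peaks on chromosome 11 (ratio 1.04, 0.869 to 1.25) and 245 and 282 on chromosome 12 (0.869, 0.729 to 1.03). BioTASQ in vivo had 351 and 335 on chromosome 11 (1.048, 0.900 to 1.22) and 382 and 343 on chromosome 12 (1.11, 0.960 to 1.29).

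The ratio of 1.39 lay above that of all 10 other chromosomes, whose ends gave 0.728 to 1.27 in the same list. The next window stood apart more than the segment did. When the chromosomes were divided into 144 full windows of 2.5 Mb, 73 had a lower density than the chromosome 11 segment, at 77.2 per Mb, and 3 had a lower density than 2.5 to 5 Mb of chromosome 11, at 55.6 per Mb.

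BioCyTASQ in vitro was sparse in both segments for this list. Of the 144 windows, 11 had a lower BioCyTASQ density than the chromosome 11 segment and 7 a lower one than the chromosome 12 segment, and the median window had 131 per Mb. The windows at 2.5 to 5 Mb were also on the low side, with 5 windows lower on chromosome 11 and 25 on chromosome 12. For BioTASQ in vivo, 24 windows were lower than the chromosome 11 segment and 68 lower than the chromosome 12 segment. The short-arm ends of the 10 other chromosomes ran from 92.8 to 167 per Mb for BioCyTASQ in vitro, from 55.6 to 109 for the BG4/BioTASQ in vitro list and from 132 to 169 for BioTASQ in vivo, so the segments lay inside the range of the other ends in all 3 lists.

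**Figure D1:**
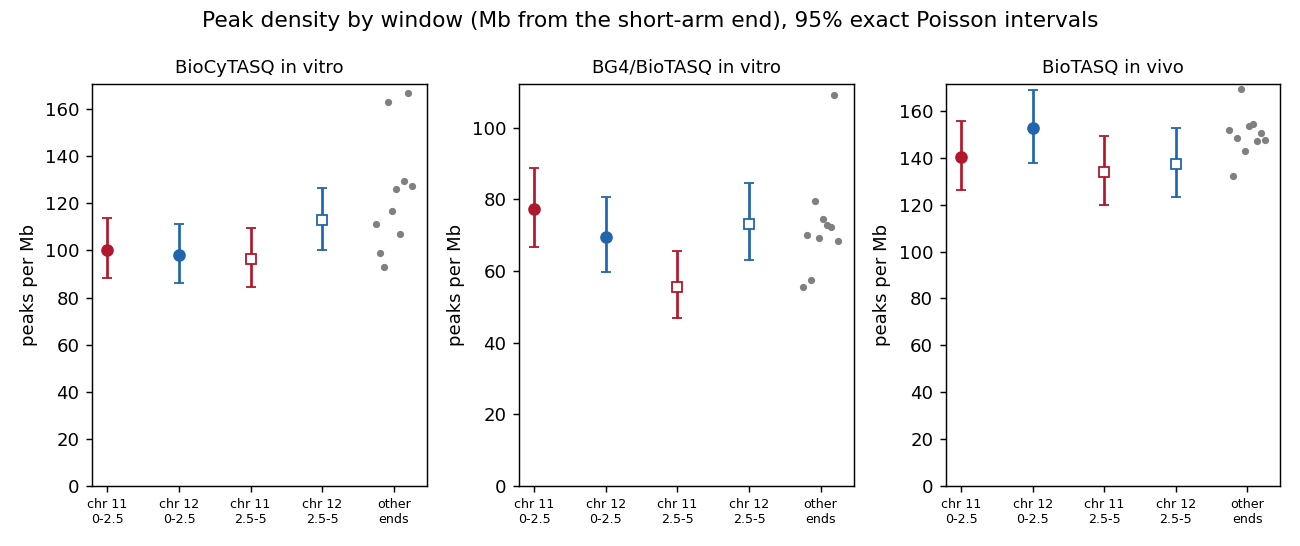
Peaks per Mb (y axis, from 0) in the segments (filled circles), in 2.5 to 5 Mb of the same chromosomes (open squares) and at the first 2.5 Mb of the 10 other chromosomes (grey points), 1 panel per list; bars are 95% exact Poisson intervals. The BG4/BioTASQ in vitro list has 77.2 per Mb in the chromosome 11 segment and 55.6 in the window next to it, while the other pairs of intervals overlap.

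Peak counts varied along the segments, and in BioTASQ in vivo some dense places were shared by the chromosomes while the densest were not. The spread over bins was not tested against random placement. In 100 kb bins, BioCyTASQ in vitro had 2 to 25 peaks on chromosome 11 (mean 10.0, SD 4.94 over 25 bins) and 3 to 19 on chromosome 12 (mean 9.80, SD 3.87). The BG4/BioTASQ in vitro list had 2 to 13 on chromosome 11 (mean 7.72, SD 2.89) and 1 to 11 on chromosome 12 (mean 6.96, SD 3.14). BioTASQ in vivo had 8 to 26 on chromosome 11 (mean 14.0, SD 5.24) and 6 to 31 on chromosome 12 (mean 15.3, SD 5.38). No bin of either segment was empty in any of the 3 lists.

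In steps of 0.5 Mb from the end, BioCyTASQ in vitro had 39, 73, 45, 53 and 41 peaks on chromosome 11 and 41, 42, 43, 49 and 70 on chromosome 12. The fullest step was thus the second from the end on chromosome 11 and the innermost on chromosome 12. The BG4/BioTASQ in vitro list had 41, 44, 40, 35 and 33 on chromosome 11 and 40, 35, 34, 32 and 33 on chromosome 12, the flattest of the 3 profiles. BioTASQ in vivo had 66, 85, 61, 64 and 75 on chromosome 11 and 67, 79, 59, 89 and 88 on chromosome 12. The first 3 steps of the in vivo list differed by at most 6 peaks between the chromosomes, with the second step fullest and the third emptiest of them on both.

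A single 100 kb bin on each chromosome was the densest of the in vivo list. On chromosome 11 it was 1.1 to 1.2 Mb, with 26 peaks of BioTASQ in vivo, 19 of BioCyTASQ and 13 of BG4/BioTASQ in vitro. The bin at the same distance on chromosome 12 had 10, 8 and 6. On chromosome 12 the densest bin was 1.7 to 1.8 Mb, with 31 peaks of BioTASQ in vivo, 18 of BioCyTASQ and 11 of BG4/BioTASQ in vitro, and the bin at the same distance on chromosome 11 had 9, 7 and 8. These were the bins in which the in vivo counts of the chromosomes were farthest apart. The next densest in vivo bins were the same on both, 2.0 to 2.1 Mb with 23 peaks on chromosome 11 and 24 on chromosome 12, and 0.4 to 0.5 Mb with 20 and 22. BioCyTASQ in vitro had its own densest bin on chromosome 11 at 0.5 to 0.6 Mb, with 25 peaks, against 10 at that distance on chromosome 12.

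**Figure D2:**
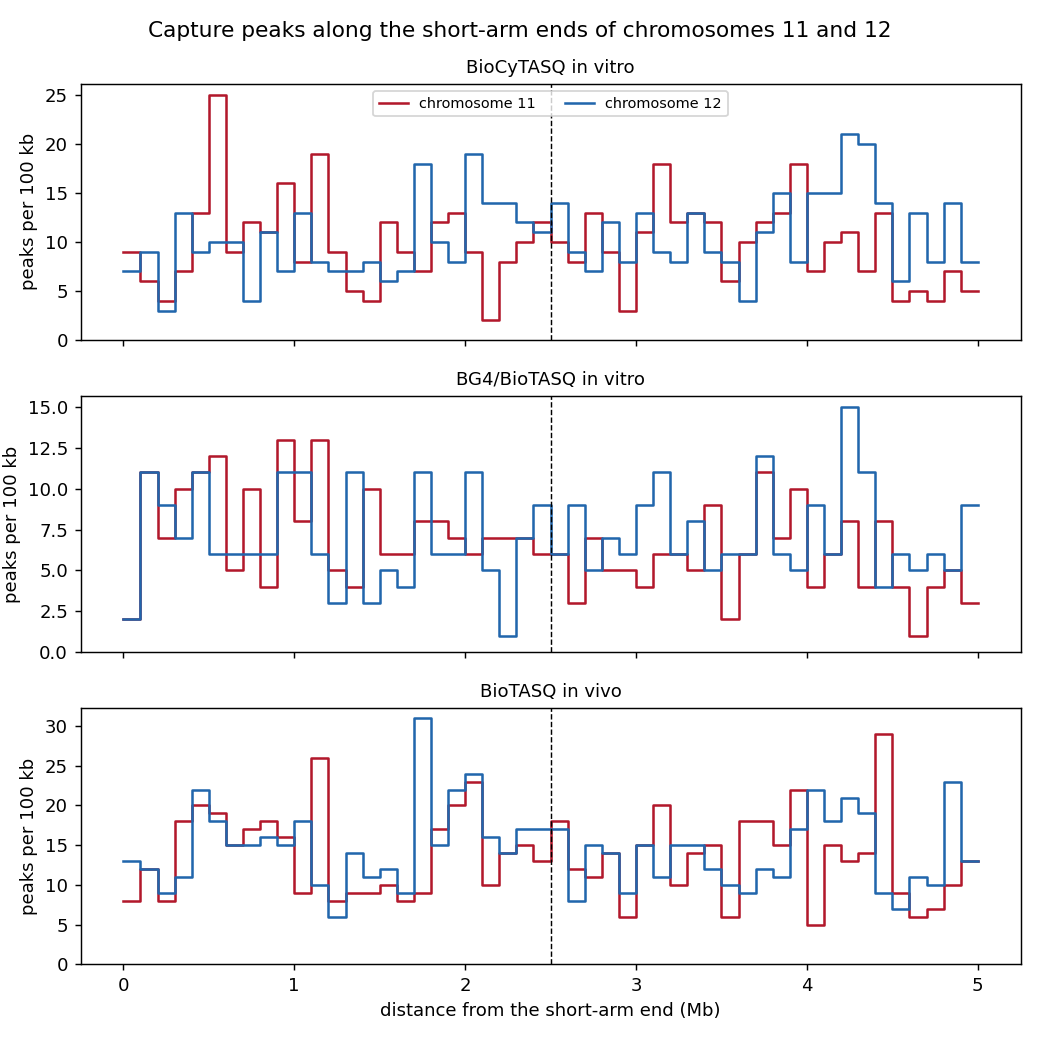
Peaks per 100 kb (y axis, from 0) against the distance from the short-arm end in Mb, 1 panel per list, for chromosome 11 (red) and chromosome 12 (blue); the dashed line is the inner edge of the segments at 2.5 Mb. Inside the edge the in vivo profiles are farthest apart in the bin that starts at 1.1 Mb, with 26 peaks on chromosome 11 and 10 on chromosome 12, and in that at 1.7 Mb, with 9 and 31.

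The order of dense and sparse bins from the end was alike between the chromosomes for BioTASQ in vivo, the most so of all pairs of short-arm ends by rank correlation but not by Pearson's r. Across 25 bins of 100 kb, Spearman's rho of the chromosome 11 against the chromosome 12 counts was 0.45 (Pearson's r 0.28). Of the 66 pairs of chromosomes, 0 had a higher rho and 6 a higher r, and the median pair had a rho of −0.01. At 2.5 to 5 Mb of the same chromosomes rho was 0.04 (r = −0.06), with 25 pairs higher. Without the 2 bins that differed most in each pair, the segments gave r = 0.73 and rho = 0.70 over 23 bins, again the highest of 66 pairs, for which the median r was 0.20. This step was chosen after the values were seen, and it removes disagreement by construction. Bins share libraries and neighbours, so these correlations carry no p.

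The place of the in vivo profiles among the pairs depended on the bins and rows counted. When rows whose summit lies outside the row were left out, rho was 0.22 and 8 pairs were higher. With 50 kb bins it was 0.32 and with 1 row per called peak 0.42, in each case with 0 pairs higher. With 250 kb bins it was 0.36 over 10 bins and 5 pairs were higher.

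In the BG4/BioTASQ in vitro list rho between the segments was 0.30 (r = 0.29), with 3 of 66 pairs higher, and −0.18 (r = 0.09) at 2.5 to 5 Mb, with 55 pairs higher. With the stronger 50% of its peaks by fold enrichment rho was 0.15 and 18 pairs were higher. With only its peaks of −log10 q of at least 5, rho was 0.41 and 0 pairs were higher. Bins of 50 and 250 kb gave 0.24 and 0.54, with 2 and 5 pairs higher. BioCyTASQ in vitro gave a negative rho in the segments, −0.19 (r = −0.15) with 58 pairs higher, against 0.14 (r = 0.05) with 12 pairs higher at 2.5 to 5 Mb. Among the stronger 50% of BioCyTASQ peaks, rho was 0.24 and 4 pairs were higher. With BioCyTASQ peaks of −log10 q of at least 5 it was −0.11 and 47 pairs were higher. Bins of 50 and 250 kb gave 0.02 and −0.09 for this list, with 27 and 36 pairs higher.

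**Figure D3:**
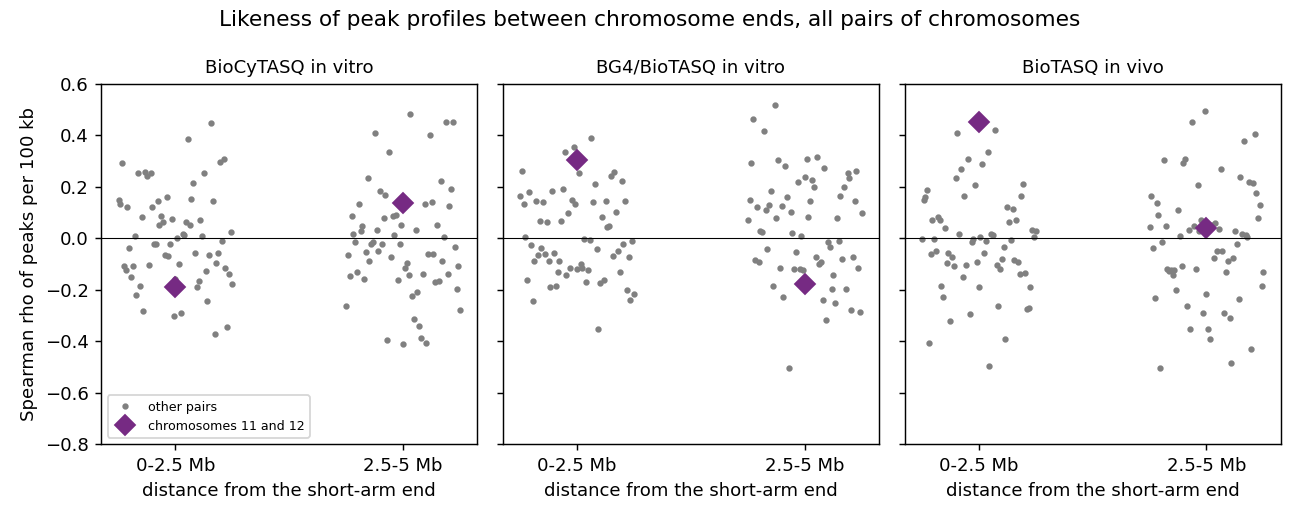
Spearman's rho of peaks per 100 kb between the short-arm ends of each pair of chromosomes (y axis), for the first 2.5 Mb and for 2.5 to 5 Mb, 1 panel per list; the purple diamond is chromosomes 11 and 12 and the grey points are the other pairs of chromosomes. The diamond is the topmost point at 0.45 for BioTASQ in vivo in the first 2.5 Mb and lies at 0.04 in the next window.

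Near the chromosome ends single peaks lay at matching distances on both chromosomes. In the outermost 50 kb, 8 pairs of peaks of the same list had one shared offset, the chromosome 11 peak lying 1.57 to 1.76 kb farther from the end than the chromosome 12 peak. They came from all 3 lists. In BioCyTASQ in vitro the row at 47331 to 47787 on chromosome 11 had a fold enrichment of 10.9 (the authors' value over the control) and the row at 45763 to 46151 on chromosome 12 one of 8.97. In BioTASQ in vivo the row at 27225 to 27537 on chromosome 11 had 5.97 and that at 25680 to 25949 on chromosome 12 had 5.79. From 50 to 100 kb the shared offset was larger, 3.92 to 4.15 kb, with 6 pairs. Among them were the BioCyTASQ rows at 83763 to 84618 on chromosome 11 and 79628 to 80496 on chromosome 12, with folds of 11.2 and 10.1, and those at 97212 to 97627 and 93076 to 93499, with 10.2 and 9.52.

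Set against all 66 pairs of chromosomes, with offsets of up to 10 kb and equal within 300 bp, 1 pair of ends had more than 8 such pairs in the outermost 50 kb and 3 others as many, and the median was 3. From 50 to 100 kb, 3 had more than 6 and 4 others as many. Of 50 windows of 50 kb along the segment, 9 had at most 5 pairs of ends above chromosomes 11 and 12. In 16 windows over 50% of the pairs of ends were above them, and in 0 windows was no pair above. The offset changed in size and sign between windows. This comparison was made after the rows were seen, dense ends have more matches, and rows of different lists at one place are counted separately. The part of reads shared between the copies in these pairs was not tested.

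Longer runs were sought within each list, at any offset between the segments: peaks that follow one another at the same distances on both chromosomes, within 150 bp per step and with steps of at most 30 kb. For BioTASQ in vivo the longest run between the segments had 9 peaks, from 1086.3 to 1160.4 kb on chromosome 11 and from 1703.3 to 1777.5 kb on chromosome 12, which are the dense places named above. Of the 66 pairs, 15 had a longer run and 16 others an equal one. For BioCyTASQ in vitro the longest run had 6 peaks and 57 pairs had longer ones. For the BG4/BioTASQ in vitro list it had 5 peaks, from 1117.8 to 1156.9 kb on chromosome 11 and from 1310.6 to 1349.6 kb on chromosome 12, and 2 pairs had longer ones, 14 others equal ones. The runs were not adjusted for the number of peaks in a segment.

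The first peaks from the end lay within 30 kb on both chromosomes in every list. In the BG4/BioTASQ in vitro list they were at 4233 to 4691 on chromosome 11, with a fold enrichment of 8.74 over the control, and at 2629 to 3004 on chromosome 12, with 6.13. Fold enrichment is used here only within a list. In BioCyTASQ in vitro they were at 12996 to 13204 (fold 2.13) and at 11291 to 11606 (fold 3.77), and in BioTASQ in vivo at 2077 to 2734 (fold 4.18) and at 25680 to 25949 (fold 5.79). None of these 6 rows overlapped a peak of another list. Over the lists, 23.2% of BioCyTASQ peaks lay on BG4/BioTASQ in vitro and 60.3% on BioTASQ in vivo. Of BG4/BioTASQ in vitro peaks, 42.1% lay on BioCyTASQ and 36.6% on BioTASQ in vivo. Of in vivo peaks, 55.9% lay on BioCyTASQ and 18.1% on BG4/BioTASQ in vitro. The share on neither other list was not computed, so whether these rows depart from it cannot be told. The outermost 100 kb held 2 BG4/BioTASQ in vitro peaks on each chromosome, against a lowest bin of 2 on chromosome 11 and 1 on chromosome 12.

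Spacing within a list was much the same on the 2 segments. The median gap between neighbouring BioCyTASQ peaks was 5.39 kb on chromosome 11 and 4.62 kb on chromosome 12, against 5.54 and 5.48 kb at 2.5 to 5 Mb and 3.32 kb over the whole list. For BioTASQ in vivo it was 3.56 and 3.70 kb in the segments, against 3.87 and 4.73 kb in the next windows and 3.58 kb over the list. For the BG4/BioTASQ in vitro list it was 7.63 and 8.54 kb, against 11.2 and 9.21 kb and 7.47 kb over the list. The longest gaps inside the segments were 57.4 and 58.7 kb for BioCyTASQ in vitro, 86.0 and 90.7 kb for BG4/BioTASQ in vitro and 45.6 and 48.0 kb for BioTASQ in vivo, chromosome 11 first.

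**Figure D4:**
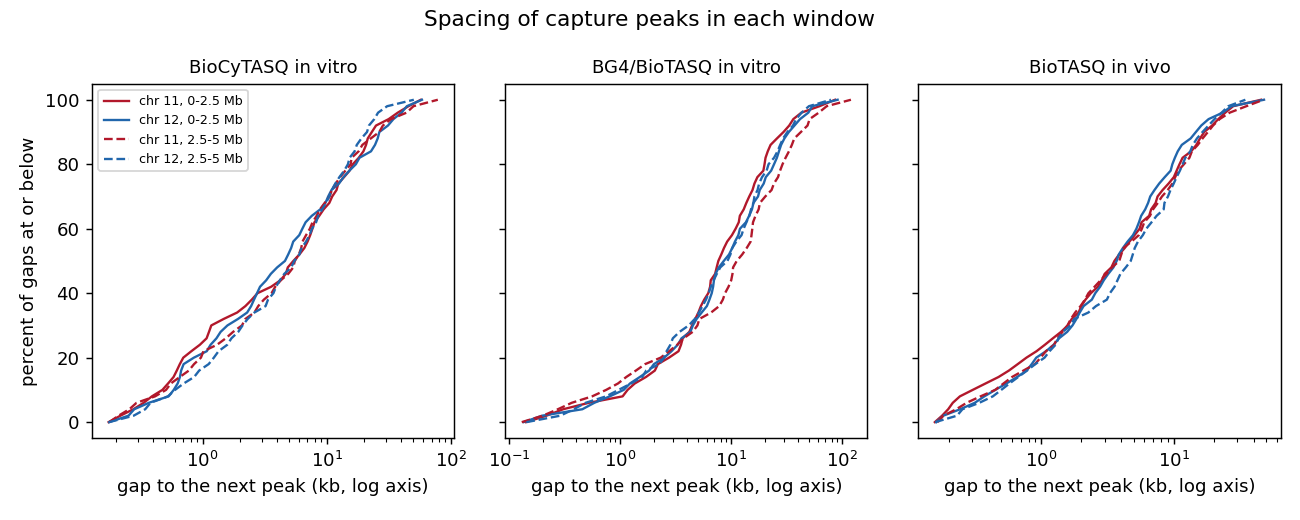
Percent of gaps between neighbouring peaks of a list (y axis) at or below a given length in kb (x axis, log scale), for the segments (solid) and 2.5 to 5 Mb (dashed) of chromosomes 11 (red) and 12 (blue). The solid lines lie close together, and the dashed red line of the BG4/BioTASQ in vitro list lies to the right of them, with a median of 11.2 kb beside 7.63 kb in the segment.

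Stretches with no peak of any list were of similar length on both chromosomes and lay at different distances from the end. On chromosome 11 the longest was 34.2 kb, at 255532 to 289771, and the next 33.6 kb, at 601774 to 635356. On chromosome 12 the longest was 39.9 kb, at 1393630 to 1433566, and the next 32.4 kb, at 1137923 to 1170369. What lies in these stretches was not analysed here.

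BG4/BioTASQ in vitro peaks of the chromosome 12 segment lay on BioTASQ in vivo peaks more often than in any other 2.5 Mb window. With overlap of at least 1 bp, 90 of 174 did, or 51.7% (44.3 to 59.0), against 36.6% over the list. On chromosome 11 it was 72 of 193, or 37.3% (30.8 to 44.3). In the windows at 2.5 to 5 Mb the share was 33.9% on chromosome 12 (27.4 to 41.0) and 31.7% on chromosome 11 (24.5 to 39.8). Of the 144 windows, 0 lay above the chromosome 12 segment and 65 above the chromosome 11 segment, and the windows ran from 22.5% to 51.7%. The intervals of segment and next window did not overlap on chromosome 12. With 50% reciprocal overlap the chromosome 12 share was 15.5%, with 8 windows higher, and with windows of 200 bp at the row centres 28.7%, with 9 higher.

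On chromosome 12 every step of 0.5 Mb stood above the share of the whole list. In steps of 0.5 Mb from the end, 19 of 40, 14 of 35, 17 of 34, 22 of 32 and 18 of 33 BG4/BioTASQ in vitro peaks overlapped BioTASQ in vivo, between 40.0% and 68.8%. On chromosome 11 the steps held 14 of 41, 11 of 44, 25 of 40, 9 of 35 and 13 of 33, so that the step at 1 to 1.5 Mb, with 62.5%, stood above the others. Those that overlapped were wider at the median. The median width of BG4/BioTASQ in vitro peaks on an in vivo peak was 269 bp on chromosome 12, against 203 bp for the others, and their median fold enrichment 5.44 against 4.66. The part of width in the overlap was not tested.

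In the other direction, 88 of 382 BioTASQ in vivo peaks of the chromosome 12 segment, or 23.04% (19.1 to 27.5), and 70 of 351 of the chromosome 11 segment, or 19.9% (16.1 to 24.4), overlapped BG4/BioTASQ in vitro, against 18.1% over the list. At 2.5 to 5 Mb the shares were 16.6% on chromosome 12 (13.1 to 20.9) and 12.5% on chromosome 11 (9.41 to 16.5). The intervals of segment and next window overlapped on both chromosomes.

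BioTASQ in vivo peaks of both segments lay on BioCyTASQ in vitro peaks less often than most of the genome. The share was 169 of 351, or 48.1% (42.97 to 53.4), on chromosome 11 and 168 of 382, or 44.0% (39.1 to 49.0), on chromosome 12, against 55.9% over the list. Of the 144 windows, 15 had a lower share than the chromosome 11 segment and 3 a lower one than the chromosome 12 segment. Across the short-arm ends of the other chromosomes the share ran from 46.4% to 66.2%, with a median of 53.9%. The chromosome 11 segment lay inside this range, above the ends of chromosomes 3 (47.4%) and 7 (46.4%). The chromosome 12 segment lay below the range. At 2.5 to 5 Mb the share was 46.3% on chromosome 11 (41.0 to 51.6) and 53.6% on chromosome 12 (48.4 to 58.9). BioCyTASQ density was itself low in both segments, as given above, and its part in these shares was not tested.

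The reverse shares were closer to the list. Of BioCyTASQ in vitro peaks, 150 of 251, or 59.8% (53.6 to 65.6), on chromosome 11 and 162 of 245, or 66.1% (59.99 to 71.8), on chromosome 12 lay on an in vivo peak, against 60.3% over the list. BG4/BioTASQ in vitro was overlapped by 68 of 251, or 27.1% (22.0 to 32.9), and 67 of 245, or 27.3% (22.1 to 33.2), against 23.2% over the list. Of BG4/BioTASQ in vitro peaks, 72 of 193, or 37.3% (30.8 to 44.3), and 72 of 174, or 41.4% (34.3 to 48.8), lay on a BioCyTASQ peak, against 42.1% over the list.

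**Figure D5:**
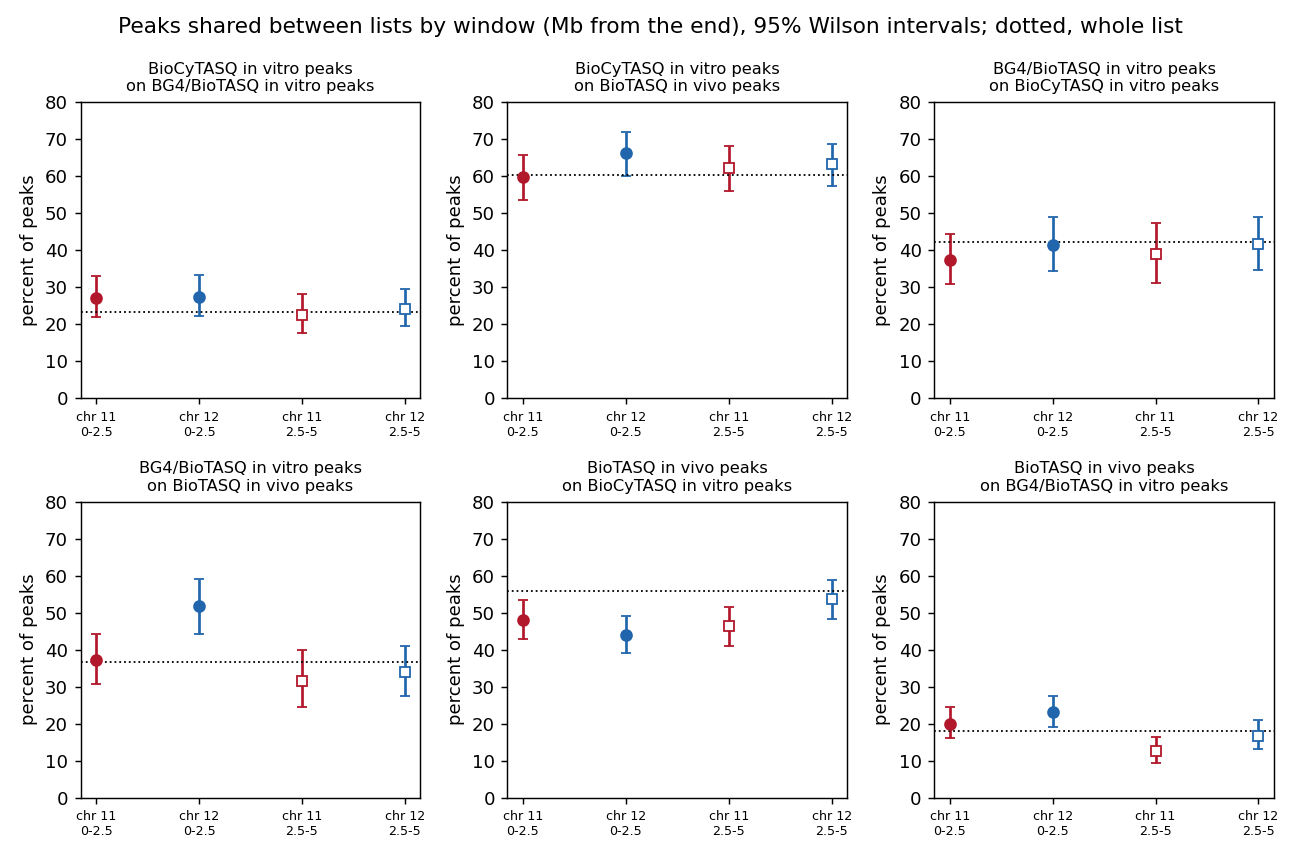
Percent of the peaks of a list that overlap a peak of another list by at least 1 bp (y axis), 1 panel per ordered pair of lists, in the segments (filled circles) and 2.5 to 5 Mb (open squares) of chromosomes 11 (red) and 12 (blue), with 95% Wilson intervals; the dotted line is the share over the whole list. In the panel of BG4/BioTASQ in vitro peaks on BioTASQ in vivo peaks the chromosome 12 segment stands at 51.7% over a dotted line at 36.6%.

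Peaks that lay on a peak of each other list made up 17.5% of BioCyTASQ in vitro peaks on chromosome 11 (44 of 251) and 18.8% on chromosome 12 (46 of 245), against 15.2% over the list. For the BG4/BioTASQ in vitro list the shares were 19.2% (37 of 193) and 27.6% (48 of 174), against 23.9%, and for BioTASQ in vivo 11.4% (40 of 351) and 12.6% (48 of 382), against 12.5%. When all rows were merged, the chromosome 11 segment held 518 regions and the chromosome 12 segment 512. Of these, 47 and 51 held all 3 lists, or 9.07% and 9.96%, against 9.07% over the genome. Rows were joined in chains, so the 3 lists need not overlap at one place in such a region. Regions of BG4/BioTASQ in vitro with BioTASQ in vivo and no BioCyTASQ peak numbered 30 of 518, or 5.79% (4.09 to 8.15), on chromosome 11 and 38 of 512, or 7.42% (5.45 to 10.02), on chromosome 12. At 2.5 to 5 Mb they were 12 of 483, or 2.48% (1.43 to 4.29), and 16 of 526, or 3.04% (1.88 to 4.88), and over the genome 3.61%. On chromosome 12 the intervals of the segment and the next window did not overlap.

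Strong peaks are named here at least 50 kb apart, which passes over some strong neighbours. The strongest BioCyTASQ in vitro peaks on chromosome 11 were at 488834 to 489883, 83763 to 84618 and 686004 to 686759, with fold enrichments of 15.3, 11.2 and 10.2. On chromosome 12 they were at 1117105 to 1119639, 403551 to 404099 and 177108 to 177885, with 12.8, 11.5 and 10.9. The list reached 20.8. All 6 overlapped a BioTASQ in vivo peak (60.3% over the list), with in vivo folds of 4.24 to 6.63, and none overlapped a BG4/BioTASQ in vitro peak (23.2% over the list). The row at 97212 to 97627 on chromosome 11, with a fold of 10.2 and not among the 6, overlapped no in vivo peak.

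The strongest BG4/BioTASQ in vitro peaks on chromosome 12 were at 2317566 to 2318188, 53724 to 54043 and 1080551 to 1080808, with folds of 13.6, 13.4 and 11.5, and all 3 overlapped both a BioCyTASQ and an in vivo peak (23.9% over the list). On chromosome 11 they were at 322199 to 323153, with a fold of 11.95 and a BioCyTASQ peak, at 1265634 to 1266020, with 11.5 and peaks of both other lists, and at 734197 to 734495, with 11.3 and no peak of another list. Over the list, 42.1% of peaks lay on a BioCyTASQ peak and 36.6% on an in vivo peak, and the share on neither was not computed. With 3 peaks per segment, no comparison of the chromosomes is made from them.

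The strongest BioTASQ in vivo peaks on chromosome 11 were at 448465 to 449686, 139678 to 140247 and 769675 to 769879, with folds of 7.90, 7.72 and 7.64. Each lay on a BioCyTASQ peak (55.9% over the list) and none on a BG4/BioTASQ in vitro peak (18.1% over the list). On chromosome 12 the peak at 1867036 to 1867526 had 8.54 and lay on peaks of both other lists (12.5% over the list). The next, at 1745257 to 1746336 with 7.82 and at 1018629 to 1019464 with 7.45, lay on no peak of another list. The share of the whole list that lay on neither other list was not computed.

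Among the regions that held all 3 lists, the strongest by rank on chromosome 11 was 1801114 to 1802498, with fold enrichments of 7.07 for BioCyTASQ in vitro, 7.37 for BG4/BioTASQ in vitro and 6.45 for BioTASQ in vivo. It was followed by 301899 to 303426 (7.71, 4.94 and 6.57) and 1148825 to 1150722 (5.48, 6.21 and 5.75), in the same order of lists. On chromosome 12 the strongest were 2343343 to 2344041 (7.66, 7.14 and 5.26), 902766 to 904107 (4.52, 6.92 and 6.85) and 53571 to 54378 (4.00, 13.4 and 5.59). Merging joins rows in chains, so a region can hold all 3 lists without a place that all 3 cover. In 1801114 to 1802498 the BG4/BioTASQ in vitro row overlapped no BioCyTASQ peak. In 301899 to 303426 and in 2343343 to 2344041 no BG4/BioTASQ in vitro row overlapped an in vivo peak.

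Median fold enrichment hardly differed between the segments. It was 4.05 on chromosome 11 and 3.80 on chromosome 12 for BioCyTASQ in vitro, against 4.05 and 4.03 at 2.5 to 5 Mb and 3.90 over the list. For the BG4/BioTASQ in vitro list it was 4.74 and 5.07, against 4.54 and 4.96 and 4.82 over the list. For BioTASQ in vivo it was 4.60 and 4.51, against 4.56 and 4.28 and 4.42 over the list. Median widths were 399 and 392 bp, 224 and 230 bp, and 328 and 332 bp, in the same order of lists. In BioCyTASQ in vitro, 16 of 251 rows of the chromosome 11 segment and 5 of 245 of the chromosome 12 segment were 1500 bp or more. The next windows had 3 of 241 and 3 of 282. The share of such rows over the list is not given here, so which segment departs from it cannot be told.

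The level that the peak caller expected from the control was also near that of the genome. It was recovered from fold enrichment and −log10 p as a number of fragments at each summit. For BioCyTASQ in vitro its median was 13.1 in the chromosome 11 segment and 11.98 in the chromosome 12 segment, against 11.6 and 12.8 in the next windows and 12.4 over the list. For BioTASQ in vivo it was 15.9 and 16.1, against 16.2 and 16.4 and 16.1 over the list. In that list 64.4% and 63.6% of segment rows lay near its lowest level, 15.7, against 60.2% over the list. Its medians could therefore differ little between places, and nothing is concluded from their closeness. The values exist at peaks only, so they say nothing of stretches between peaks.

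The peaks just inside and just outside the inner edge are given by fold enrichment. On chromosome 11 the last BioCyTASQ in vitro peak inside had a fold enrichment of 1.65 and the first outside 1.64, the BG4/BioTASQ in vitro peaks 3.90 and 2.98, and the BioTASQ in vivo peaks 4.00 and 3.18. On chromosome 12 the pairs were 3.94 and 4.55, 3.02 and 3.54, and 4.24 and 5.22, in the same order of lists.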

How the data were processed

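The deposited files were 4 peak lists, 1 per capture, with no header and with columns in the order of MACS2 narrow peaks. Per the submitters' processing notes, the tools were MACS2 2.1.1, SAMtools 1.5, Picard, BWA and Trim Galore 0.4.4, with no role stated. Fold enrichment, a ratio over the control, is a value of the authors' caller, as are the deposited −log10 values of p and q. The deposited score, the whole part of −log10 q on a larger scale, was not used. The sources used here do not state the build, the control library, the threshold or whether replicates were pooled.

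In this work 26 repeated rows were dropped, peaks were placed by midpoint, and overlap meant at least 1 bp. Chromosome length was the largest peak end in any list. The control level was solved under the Poisson formulas of MACS2, with a whole pileup recovered for 100% of BioCyTASQ and BioTASQ in vivo peaks, and not attempted for the third list. Named regions were the 3 strongest peaks per segment and list at least 50 kb apart, the 3 strongest regions of all lists, the first peaks, the 2 longest empty stretches and the peaks at the edge. The members, windows and comparisons were chosen with earlier results of these data known. The places among chromosome pairs and 144 windows, the equal-spacing runs, the shared offsets, the control level and the name numbers were added after the lists were examined. The routines for overlap, ratio intervals, runs, offsets and the control level were tested on simulated data. Python 3.11.15, NumPy 2.4.6, pandas 2.3.3, SciPy 1.17.1, Numba 0.67.0 and Matplotlib 3.10.9 were used.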

Additional observations from a re-analysis of the deposited data

How the results depend on the processing

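Of 207 recomputed values of 30 results, 153 stayed inside the main interval (densities, within 1.5 times) and 54 moved. Only 1 recomputed ratio had a main interval that excluded 1, that of BG4/BioTASQ in vitro on chromosome 11 (1.39), and it did not change direction. The Pearson r between the segments, −0.15 for BioCyTASQ in vitro, was 0.23 with the stronger 50% of peaks, a change of sign within its wide interval. For the other lists r stayed above 0 under all 6 settings. No value moved for segments of 2 or 3 Mb, peaks within 500 bp merged, a −log10 q of at least 5, bins of 50 or 250 kb, or 1 row per called peak. The allowances were wide, so no stability is concluded from this. Bin size bears on Pearson's r only, whose intervals treat 25 bins as independent. With 250 kb bins r was 0.58 for BG4/BioTASQ in vitro, beside 0.29, and counted as unmoved. The choice of 1 row per called peak and the one on summits were made after the data were seen.

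With the stronger 50% of each list by fold, the densities on chromosomes 11 and 12 were 51.2 and 47.6 per Mb for BioCyTASQ in vitro, 37.6 and 36.8 for BG4/BioTASQ in vitro and 78.8 and 82.4 for BioTASQ in vivo, by construction of the choice. The in vivo ratio of the chromosome 12 segment to the next window was then 1.32, above the main interval (1.11, 0.960 to 1.29). Its own interval is not given here, so the count of ratios whose interval holds 1 applies to all peaks only. The overlap shares moved under 5 settings, given here as chromosome 11 and chromosome 12. BioCyTASQ on BG4/BioTASQ in vitro was 5.47% and 9.24% with the stronger 50%, 21.5% and 19.6% with 50% of the shorter peak, 5.58% and 8.16% with 50% reciprocal overlap, and 15.5% and 16.3% with 200 bp windows. BioCyTASQ on BioTASQ in vivo was 51.6% and 55.5% with the stronger 50%, 38.6% and 44.5% reciprocal, 50.2% and 54.7% with windows, and 48.8% and 59.3% without rows whose summit lies outside. BG4/BioTASQ in vitro on BioCyTASQ was 8.51% and 11.96% with the stronger 50%, 28.5% and 29.9% of the shorter peak, 7.25% and 11.5% reciprocal, and 20.2% and 22.99% with windows. BG4/BioTASQ in vitro on BioTASQ in vivo was 28.7% and 37.0% with the stronger 50%, 24.4% and 37.4% of the shorter peak, 6.74% and 15.5% reciprocal, and 16.6% and 28.7% with windows; without rows whose summit lies outside, chromosome 12 had 44.3%. BioTASQ in vivo on BioCyTASQ was 39.6% and 35.0% with the stronger 50%, 27.6% and 28.5% reciprocal, and 35.9% and 35.1% with windows. BioTASQ in vivo on BG4/BioTASQ in vitro was 14.2% and 17.0% with the stronger 50%, 12.8% and 17.0% of the shorter peak, 3.70% and 7.07% reciprocal, and 9.12% and 13.1% with windows. Stricter overlap and fewer peaks lower a share by construction.

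No paired analysis was possible because each capture has 1 list and no values per library, and leaving out a replicate was not run for the same reason. Homologous places, gene context and guanine-run motifs were not run, since no genome of the lists' build was used here.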

Other observations

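The numbers in the row names did not run without gaps. For BioTASQ in vivo, 316 of 504 numbers spanned by the chromosome 11 segment were present, or 62.7%, and 354 of 551, or 64.2%, on chromosome 12, against 65.0% over the list. For BioCyTASQ in vitro the shares were 95.8% and 94.2%, against 95.1%. The BG4/BioTASQ in vitro list lacked 0 numbers in either segment. The longest run of missing in vivo numbers was 4 on chromosome 11, in the 33.7 kb before 635419, and 6 on chromosome 12, in the 26.9 kb before 1844815. The sources used here do not state why numbers are missing.

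Rows that share a name came from one called peak. In the in vivo list 35 of 351 rows of the chromosome 11 segment and 28 of 382 of the chromosome 12 segment were such further rows. Over the list, 57500 rows carried 53140 names. In the segments 23.1% and 22.0% of rows had their summit outside the row, against 22.97% over the list.

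Fold enrichments of overlapping peaks were weakly related within the segments. Across 343 overlapping BioCyTASQ in vitro and BioTASQ in vivo pairs, Spearman's rho was 0.15, against 0.24 for 32614 pairs over the genome. It was −0.13 across 144 pairs of BioCyTASQ and BG4/BioTASQ in vitro, against −0.02 for 12518 pairs over the genome. For BG4/BioTASQ in vitro and BioTASQ in vivo it was −0.10 across 165 pairs, against −0.05 for 10935 pairs over the genome. Pairs of peaks share libraries and are not replicates.

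Bin counts of different lists were compared inside each segment. Over 25 bins, Pearson's r between BioCyTASQ and BioTASQ in vivo counts was 0.63 on chromosome 11 and 0.64 on chromosome 12, that of BG4/BioTASQ in vitro with BioTASQ in vivo 0.46 and 0.49, and that of BioCyTASQ in vitro with BG4/BioTASQ in vitro 0.45 and 0.22.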
